A study of Mus musculus with 6 samples.

Results

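ISG15 is a small ubiquitin-like protein whose gene is among those most responsive to type I interferon, and it is joined to other proteins by its own chain of enzymes. UBA7, the E1 enzyme, activates ISG15 and hands it to UBE2L6, the E2 enzyme. In the mouse HERC6 is the main E3 ligase, which passes ISG15 on to lysines of target proteins, and USP18 is the protease that takes it off again. USP18 has a separate role at the type I interferon receptor, where it binds the IFNAR2 subunit and damps signalling. In microglia, the resident macrophages of the brain, these genes belong to the interferon response programme.

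The mRNAs of these 5 genes (Isg15, Uba7, Ube2l6, Herc6 and Usp18) were followed in brain microglia of the lupus-prone MRL/lpr mouse and of its MRL/mpj control. The genes were taken by name and no value entered the rule, though earlier results of these data were known when they were chosen. They are 5 of the 55401 genes counted in the series, and each passed the filter on low counts. Proteins and ISG15 conjugates were not measured, so the values below are RNA levels alone.

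The MRL/lpr strain bears lpr, a mutation of Fas, on the MRL background, and MRL/mpj mice have the same background without it. The mice were untreated and 6 weeks old, and each strain gave 3 libraries. Cells were released from perfused brains with collagenase IV and DNase I, passed over Percoll and taken on magnetic beads by CD11b, a surface protein that other myeloid cells share with microglia. The labels do not say whether a library is 1 mouse or a pool, so the p-values below measure the spread between these libraries.

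Libraries held 45481609 to 49846634 counts. Fas itself gave 282 to 461 counts in MRL/lpr and 362 to 432 in MRL/mpj. The count of the mutated gene thus did not separate the strains, and it cannot check the labels. The reason was not tested. Xist, which is transcribed from the inactive X chromosome, gave 8886 to 11319 counts in MRL/lpr and 27 to 38 in MRL/mpj. The Y-linked Ddx3y gave 3690 to 5720 counts in MRL/lpr and 5505 to 7559 in MRL/mpj, so that the MRL/lpr libraries held both kinds of transcript and the MRL/mpj libraries almost only the Y-linked kind. The methods name female mice for both MRL strains. The Y-linked counts in every library, and the near absence of Xist in MRL/mpj, are at odds with that. The make-up by sex therefore cannot be told apart from the strain in any value below. Mitochondrial genes made up 3.06% to 3.49% of MRL/lpr and 5.84% to 6.38% of MRL/mpj counts. In MRL/lpr replicate 3 a single gene, CT010467.1, held 6.38% of the counts, against at most 0.458% elsewhere. Some genes jumped in 1 library, such as the microglial Cx3cr1 with 132706 counts in MRL/lpr replicate 2 and 10334 to 29349 in the others.

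The genes lie apart from each other in the genome, on chromosomes 2, 4, 6 and 9 (GRCm38, GENCODE M21). Isg15 (ENSMUSG00000035692) is a compact gene of 2 exons at chr4:156199424-156200818 on the minus strand. The other genes are on the plus strand. Uba7 (ENSMUSG00000032596) spans chr9:107975505-107984060 with 14 exons once overlapping exons are merged, and Ube2l6 (ENSMUSG00000027078) spans chr2:84798828-84810335 with 5. Herc6 (ENSMUSG00000029798) at chr6:57581000-57664632 has 21 merged exons and Usp18 (ENSMUSG00000030107) at chr6:121245906-121270917 has 11.

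Interferon-responsive promoters often carry the interferon-stimulated response element, whose core is a repeat of GAAA with a gap of 2 bases and which is bound by a complex that holds STAT2 and IRF9. RefSeq start sites with 300 bases around them (250 before and 50 after, GRCm38.p6) were given for 4 of the 5 genes, all but Usp18. This core (GAAA, any 2 bases, GAAA), searched on both strands, was in the window of Isg15 alone among the 4, and in 3.44% of all 32851 windows. Isg15 held it 3 times in overlapping copies, at -78 to -69, -72 to -63 and -66 to -57 from the start. The bases before the start of Isg15 and Ube2l6 are shown to set the gene with the repeat beside another higher gene that had no match, with the run of 3 copies in capitals.

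Isg15, chr4:156200819-156201068, minus strand: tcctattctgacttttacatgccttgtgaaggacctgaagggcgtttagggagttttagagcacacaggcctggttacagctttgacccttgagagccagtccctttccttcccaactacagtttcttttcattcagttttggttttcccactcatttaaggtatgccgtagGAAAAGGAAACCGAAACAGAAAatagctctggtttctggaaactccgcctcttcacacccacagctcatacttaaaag

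Ube2l6, chr2:84798578-84798827, plus strand: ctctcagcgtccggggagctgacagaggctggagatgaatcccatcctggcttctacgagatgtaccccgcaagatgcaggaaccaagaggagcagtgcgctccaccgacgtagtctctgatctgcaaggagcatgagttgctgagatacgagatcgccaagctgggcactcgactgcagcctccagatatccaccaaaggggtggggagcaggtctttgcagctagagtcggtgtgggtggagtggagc

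The shorter IRF element AANNGAAA, which overlaps the longer motif, was in 23.9% of all windows. Besides Isg15 it was found in Uba7, once, on the minus strand at -27 to -20 from a RefSeq start that lies downstream of the GENCODE start, shown in capitals within its 30 surrounding bases.

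Uba7, chr9:107975529-107975558, plus strand: actcagtctagTTTCACTTttggtttcctg

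Ube2l6 and Herc6 held neither motif in these windows. TTCNNNGAA, the GAS element, was in none of the 4 and in 8.3% of all windows. A match is a description of letters and says nothing of binding in these cells.

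All 5 mRNAs were higher in MRL/lpr microglia. With p-values from the edgeR quasi-likelihood fit, adjusted by Benjamini-Hochberg over the 19554 genes tested, each of the 5 passed an adjusted p of 0.05, as did 11.1% of all genes in that direction. Of the 5, 4 also reached a log2 fold change of 1, which 4.67% of all genes did. The groups of 3 libraries did not overlap for any of the 5, which held for 19.6% of all genes with MRL/lpr higher. The median log2 fold change was 1.25 for the 5 genes and -0.01 for all genes tested. In RNA from a whole cell preparation, a higher level per cell and more cells with the transcript cannot be told apart.

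Isg15, the modifier, gave 1148, 1147 and 1091 counts in MRL/lpr replicates 1, 2 and 3 and 642, 519 and 446 in the MRL/mpj replicates. Scaled for depth and composition (TMM), this was 25.0 ± 0.989 CPM (counts scaled by library total; SD, n = 3) against 10.5 ± 1.96. The MRL/lpr libraries lay close together, and MRL/mpj replicate 3 was the lowest of the 6. The log2 fold change was 1.25 (SE 0.15), a 2.38-fold difference (adjusted p = 0.000289, edgeR).

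Uba7, the E1 enzyme that starts the cascade, gave 8395, 8159 and 6931 counts in MRL/lpr and 5424, 5485 and 5422 in MRL/mpj, or 173 ± 6.39 against 106 ± 2.87 CPM. It had the smallest difference of the 5 genes. Its log2 fold change was 0.70 (SE 0.07), a 1.62-fold difference (adjusted p = 7.65e-05, edgeR), and it was the only one of the 5 short of a doubling. The libraries of both strains were tight, with coefficients of variation of 3.70% and 2.70%.

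Ube2l6, the E2 enzyme, gave 2124, 1288 and 1922 counts in MRL/lpr and 808, 658 and 737 in MRL/mpj. MRL/lpr replicate 2 stood below its group and still above every MRL/mpj library. The means were 39.5 ± 10.5 and 14.3 ± 1.29 CPM, and the coefficient of variation in MRL/lpr, 26.6%, was the highest of the 5 genes. The log2 fold change was 1.46 (SE 0.19), a 2.75-fold difference (adjusted p = 0.000899, edgeR). Without MRL/lpr replicate 2 it was 1.67.

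Herc6, the E3 ligase, gave 3239, 3356 and 2436 counts in MRL/lpr and 1434, 1455 and 1539 in MRL/mpj. MRL/lpr replicate 3 was the lowest of its strain and the MRL/mpj libraries were nearly alike, at 66.2 ± 6.92 against 28.9 ± 0.864 CPM. The log2 fold change was 1.20 (SE 0.10), a 2.29-fold difference (adjusted p = 3.06e-05, edgeR).

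Usp18, the protease that removes ISG15, showed the largest difference of the 5 genes and ranked above 98.7% of all genes tested. It gave 1216, 1270 and 1351 counts in MRL/lpr and 218, 222 and 222 in MRL/mpj, or 28.4 ± 3.45 against 4.32 ± 0.108 CPM. The lowest MRL/lpr library held over 5 times the counts of the highest MRL/mpj library. The log2 fold change was 2.72 (SE 0.13), a 6.57-fold difference (adjusted p = 1.48e-06, edgeR).

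**Figure D1:**
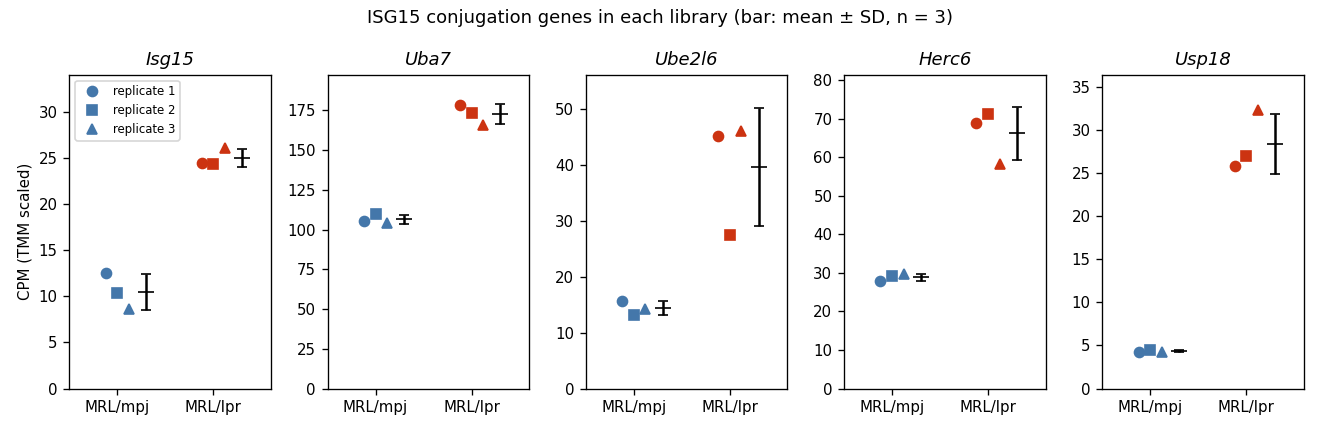
TMM-scaled CPM (vertical axes, starting at 0) of Isg15, Uba7, Ube2l6, Herc6 and Usp18 in each library, with the replicate as the symbol and the mean ± SD of 3 libraries as the bar. In all 5 panels the 3 MRL/lpr libraries (red) lie above the 3 MRL/mpj libraries (blue), from 106 to 173 CPM in the means of Uba7 and from 4.32 to 28.4 CPM in those of Usp18, and MRL/lpr replicate 2 stands low for Ube2l6.

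The genes of the cascade thus differed by unequal amounts, and the balance between them was compared within each library on the deposited FPKM values (read fragments scaled by gene length and library size). The ratio of Usp18 to Isg15, the remover to the modifier, was 0.267, 0.279 and 0.312 in MRL/lpr and 0.0847, 0.106 and 0.124 in MRL/mpj. The ratio was 2.75-fold higher in MRL/lpr, with no overlap (two-sided exact permutation p = 0.1, the smallest that 3 against 3 libraries allow). The ratio of Uba7 to Isg15 went the other way. It was 0.768, 0.747 and 0.667 in MRL/lpr and 0.886, 1.11 and 1.28 in MRL/mpj, or 0.673 times the MRL/mpj value (two-sided exact permutation p = 0.1, again the smallest possible). Neither of these 2 ratios can pass 0.05 by that test at this number of libraries.

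Per length, Isg15 was the most abundant of the 5 transcripts in MRL/lpr at 30.3 ± 0.232 FPKM, ahead of Uba7 at 22.1 ± 1.48, Ube2l6 at 16.9 ± 4.30, Usp18 at 8.67 ± 0.770 and Herc6 at 6.10 ± 0.816 (SD, n = 3). Uba7 and Ube2l6 were neighbours in that order whose spreads touched. In MRL/mpj Uba7 at 14.8 ± 0.405 and Isg15 at 13.9 ± 2.60 FPKM were within the spread of each other. Ube2l6 followed at 6.67 ± 0.600, Herc6 at 2.89 ± 0.0874 and Usp18 at 1.42 ± 0.0321.

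Usp18 and Herc6 thus changed places, with Usp18 above Herc6 in 3 of 3 MRL/lpr libraries and in 0 of 3 MRL/mpj libraries. The order held with counts per kilobase of the longest protein-coding transcript, a length chosen after the data were seen, at 15.3 ± 1.30 for Usp18 and 13.3 ± 1.82 for Herc6 in MRL/lpr and 2.54 ± 0.0689 and 6.32 ± 0.202 in MRL/mpj. On that length the lead of Usp18 in MRL/lpr was within the spread of the libraries. The order of Uba7 and Isg15 did not hold. On that length, where Uba7 counts as 3195 bp in place of the 7510 bp that the FPKM imply, Uba7 was above Isg15 in 3 of 3 MRL/lpr libraries, at 51.8 ± 3.63 against 31.6 ± 0.127. The first place in MRL/lpr therefore rests on the length used.

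**Figure D2:**
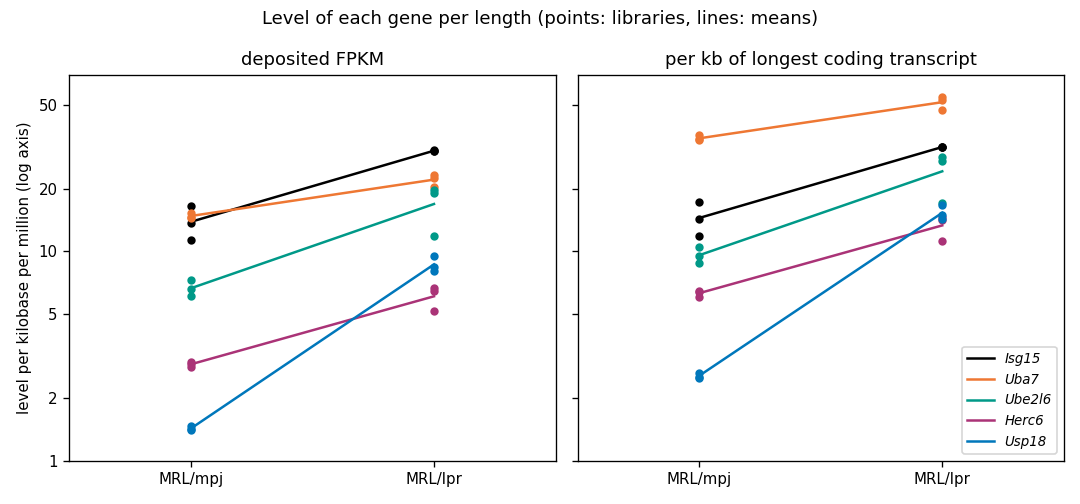
Level of each of the 5 genes per kilobase, scaled by library size (log axis), in the 3 MRL/mpj and the 3 MRL/lpr libraries, as deposited FPKM on the left and per kilobase of the longest coding transcript on the right. Points are libraries and lines join the means. The line of Usp18 crosses that of Herc6 in both panels, while Uba7 and Isg15 cross only on the left.

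Reads could be shared with other transcripts for some of the 5 genes. Isg15 matched the processed pseudogene AC151275.1 at 95.2% identity over 482 of its 756 bp, and that pseudogene held 6 to 17 counts in each library. The transcript of Ube2l6 shared stretches of up to 510 bp with others, so part of its counts is less certain. The matches to expressed genes included D10Wsu102e (90.6% identity over 498 bp, with 1650 to 2380 counts), Smchd1 (92.1% over 290 bp, with 4528 to 5827 counts) and Ift46 (96.5% over 260 bp, with 875 to 1195 counts). Genes that overlap Herc6, Uba7 and Usp18 held at most 102 counts in any library (Gm20661 within Uba7), far under the counts of the 5 genes.

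The nearest tested coding gene on each side was read to see whether the difference extended along the chromosome. Of these 10 neighbours none was higher by the test, and only Serping1, which encodes the C1 inhibitor of complement and lies 23384 bp from Ube2l6, passed it, with a log2 fold change of -0.95 (SE 0.17, adjusted p = 0.00415, edgeR). Agrn and AW011738, within 2486 bp on either side of Isg15, had log2 fold changes of -0.07 and 0.06. Inka1, which starts 163 bp beyond the end of Uba7, had -0.04, and Traip on its other side had 0.44 (adjusted p = 0.397, edgeR). Timm10 beside Ube2l6 had -0.15, Ppm1k and Pyurf beside Herc6 had 0.21 and -0.49, and Pex26 and Slc6a13 beside Usp18 had 0.22 and -0.98, none past the test.

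**Figure D3:**
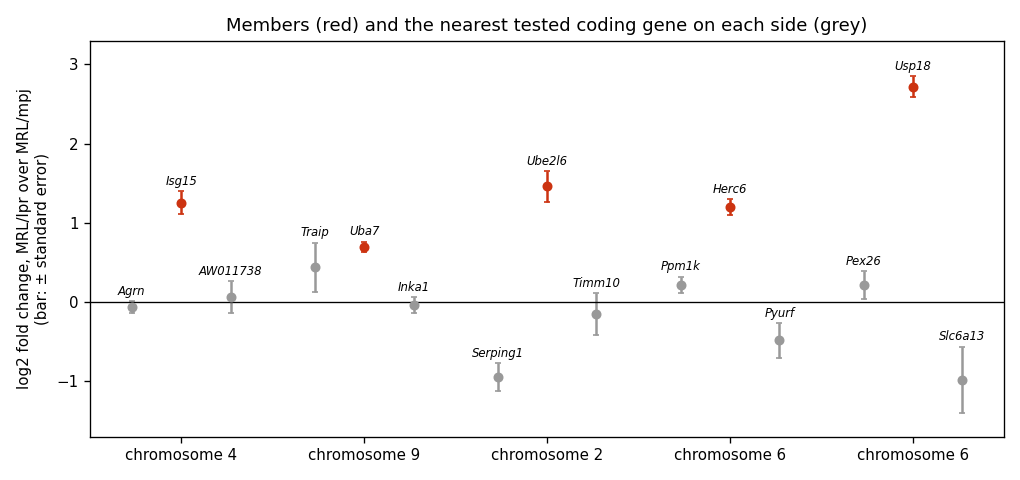
Log2 fold change, MRL/lpr over MRL/mpj, with its standard error for each of the 5 genes (red) and the nearest tested protein-coding gene before and after it (grey), one column per gene with its chromosome below. The 5 genes lie between 0.70 and 2.72, while their neighbours lie between -0.98 and 0.44.

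The closest relatives of the 5 genes mostly serve ubiquitin and other modifiers. The proteases Usp16 and Usp21, counted among the relatives, can also remove ISG15 and are counted again below among its partners. Of 60 such relatives, 59 were tested. Of these, 6 were higher and 3 were lower at an adjusted p of 0.05 (edgeR), against 11.1% and 9.06% of all genes, none of the relatives had a log2 fold change of 1 or more with it in either direction, which 4.67% of all genes had upward and 3.66% downward, and their median log2 fold change was 0.02. The split turned with the scaling, to 4 higher and 10 lower with library size only and 3 higher and 7 lower with limma on log2(FPKM + 1). Ubd, an interferon-inducible modifier also called FAT10, was not tested, with 0 to 12 counts per library.

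Among 12 tested genes for modifiers, 2 were higher. Ubb, which encodes a chain of ubiquitin units, gave 63284, 61844 and 51989 counts in MRL/lpr and 35298, 34054 and 32423 in MRL/mpj, a log2 fold change of 0.97 (SE 0.06, adjusted p = 8.17e-06, edgeR). The ubiquitin gene Rps27a, fused to a ribosomal protein, had -0.15 and did not pass the test, but was lower with library size only (-0.27, adjusted p = 0.0220, edgeR) and with limma on log2(FPKM + 1) (-0.26, adjusted p = 0.0188).

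The E1 enzymes of ubiquitin, Uba1 with 0.14 and Uba6 with -0.08, did not pass the test. Of the 8 E1 genes tested, none was higher and 1 was lower. Ube2l3, the E2 enzyme most like Ube2l6, gave 1573, 1368 and 1310 counts in MRL/lpr and 1149, 3577 and 4163 in MRL/mpj, so that MRL/mpj replicate 1 stood among the MRL/lpr values. Its log2 fold change was -0.89 (SE 0.50, adjusted p = 0.312, edgeR), and it was -1.28 with an adjusted p of 0.000206 (edgeR) once that library was left out. Ube2d3 and Ube2e3, at 0.59 and 0.37, were higher and Ube2z, at -0.25, was lower among 16 E2 genes. The call of Ube2e3 was lost without MRL/lpr replicate 2 or MRL/mpj replicate 1 or 2 (adjusted p = 0.0614 to 0.0854, edgeR), and that of Ube2z without any library but MRL/lpr replicate 3 (adjusted p = 0.106 to 0.146, edgeR).

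Herc3 and Herc4, relatives of Herc6, had 0.13 and 0.24, neither past the test, though Herc4 passed it without MRL/lpr replicate 3 (adjusted p = 0.0109, edgeR). Herc1 had 0.26 (adjusted p = 0.0351, edgeR), and lost the call without replicate 1 or 2 of either strain (adjusted p = 0.0940 to 0.147, edgeR). Of 19 other USP proteases the largest absolute difference was that of Usp2 at -0.66 (SE 0.09), and Usp25 at 0.45 was the 1 that was higher.

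Around the 5 genes, 8 genes of type I interferon signalling were read first. The higher genes numbered 6 and the lower genes 0, against 11.1% and 9.06% of all genes, with a median log2 fold change of 0.58. Irf7, the factor that amplifies interferon production, gave 2375, 2410 and 1916 counts in MRL/lpr and 308, 349 and 379 in MRL/mpj, a log2 fold change of 2.86 (SE 0.11, adjusted p = 4.66e-07, edgeR). Stat2 (1.21) and Irf9 (0.64), which belong to the factor that binds the response element, were higher as well. The receptor kinases Jak1 (0.53) and Tyk2 (0.28) were also higher, and the call of Tyk2 was lost without MRL/mpj replicate 1 (adjusted p = 0.0540, edgeR) or replicate 2 (adjusted p = 0.0782, edgeR), with library size only (0.16, adjusted p = 0.129, edgeR), with limma on log2(FPKM + 1) (0.15, adjusted p = 0.0966) and with a replicate block (adjusted p = 0.0540, edgeR). The receptor genes Ifnar1 at -0.09 and Ifnar2 at 0.07, the latter encoding the subunit that USP18 binds, did not pass the test.

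ISG15 also acts by binding, and 11 genes whose products bind ISG15 or USP18, or ligate, remove or receive ISG15, were listed. Of these, 3 were higher and none lower, against the same shares of all genes, with a median log2 fold change of 0.07. Stat2, which brings USP18 to the receptor, gave 5284, 5109 and 3954 counts in MRL/lpr and 2361, 1906 and 2731 in MRL/mpj, a log2 fold change of 1.21 (SE 0.12). Itgal, the alpha chain of the LFA-1 integrin to which secreted ISG15 binds, had 1.09 (SE 0.12), while its partner chain Itgb2 had 0.05. Sqstm1, the autophagy receptor p62, was higher by 0.72 (SE 0.06).

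Trim25, a second ligase for ISG15, gave 3425, 3558 and 2948 counts in MRL/lpr and 1312, 1074 and 3288 in MRL/mpj. MRL/mpj replicate 3 stood with the MRL/lpr libraries in counts and just under them after scaling. The log2 fold change was 0.99 (SE 0.45, adjusted p = 0.220, edgeR), and without that library it was 1.63 (adjusted p = 9.25e-05, edgeR). Arih1, another ligase, had 0.03, and the proteases Usp16 and Usp21, which can also remove ISG15, had 0.08 and -0.0043, none past the test.

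Of 13 genes whose proteins are described as ISG15 substrates, 6 were higher and 1 was lower, again against 11.1% and 9.06% of all genes, with a median log2 fold change of 0.13. Mx1, a GTPase against viruses, gave 1803, 1761 and 1240 counts in MRL/lpr and 252, 246 and 339 in MRL/mpj, a log2 fold change of 2.69 (SE 0.16, adjusted p = 4.89e-06, edgeR). Ddx58, which encodes the RNA sensor RIG-I, had 1.21 (SE 0.11), Eif2ak2, the kinase PKR, had 0.91 (SE 0.08), and the RNA sensor Ifih1 had 0.54 (SE 0.10). Jak1 was higher as well. Plcg1, a phospholipase, was lower by 0.36 on the log2 scale (adjusted p = 0.00931, edgeR), and Irf3 had -0.21 (adjusted p = 0.166, edgeR), which passed with library size only (-0.34, adjusted p = 0.0330, edgeR) and with limma on log2(FPKM + 1) (-0.30, adjusted p = 0.0406). Those named as higher are themselves genes of the interferon response or its signalling, while Mapk3 (-0.05), Ube2n (-0.02), Becn1 (-0.02) and Ppm1b (0.04) did not pass the test.

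**Figure D4:**
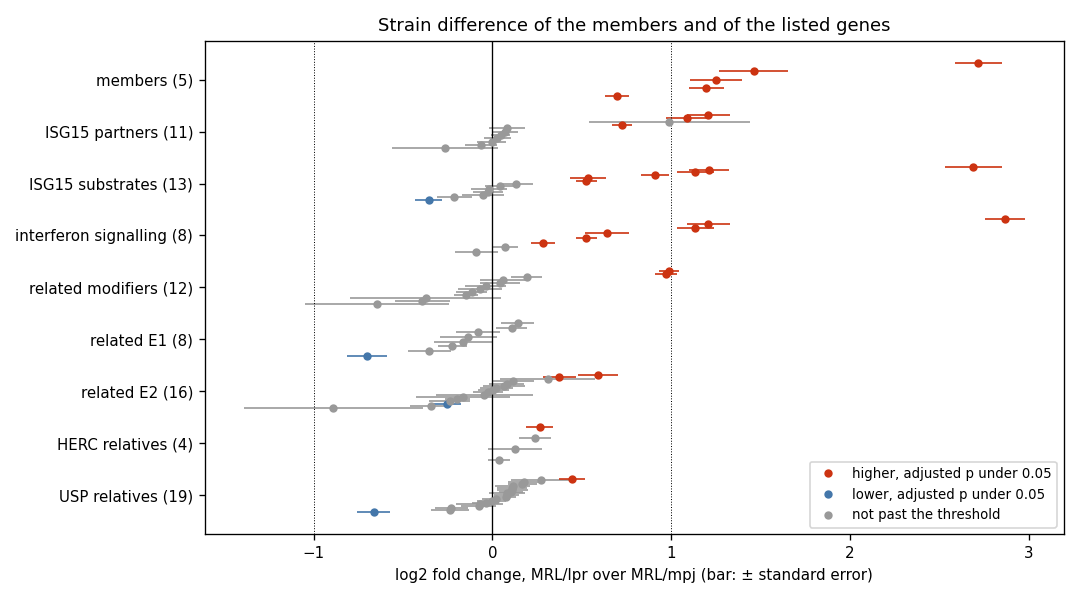
Log2 fold change, MRL/lpr over MRL/mpj, with its standard error for the 5 genes (top) and for each tested gene of the listed groups, the number tested in brackets. Red and blue points passed an adjusted p of 0.05, grey points did not, and dotted lines mark a log2 fold change of 1 in either direction. All 5 points at the top are red, whereas 50 of the 59 relatives in the lower 5 rows are grey and none of the 59 crosses a dotted line.

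The genes whose values moved most like those of each of the 5 across the 6 libraries were sought among 9298 genes with a mean of at least 10 CPM, by the root mean square difference of log2 CPM centred on each gene's mean. Since the strain difference dominates such a measure, it finds genes of a like fold change. For Herc6 they were Wee1, Parp14 and Phf11d, at 0.0339, 0.0343 and 0.0440. For Ube2l6 they were Oasl2, Igtp and Helz2, at 0.145, 0.176 and 0.189. Uba7 moved most like Sqstm1 (0.0202), Rhob (0.0225) and Zfp36 (0.0231), which are abundant genes in these cells. Isg15 moved most like Mxd4, H2-DMa and Gadl1, at 0.0745 to 0.0848, and Usp18 most like Mrc2, Ppfia4 and Msh5, at 0.1004 to 0.1273. Between pairs of the 5 genes the difference ran from 0.221 for Isg15 and Herc6 to 1.01 for Uba7 and Usp18. These values cannot be weighed against those above, which were picked as the smallest among 9298 genes. Whether the 5 genes moved less like each other than like other genes was not tested.

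Within MRL/lpr the deviations of the 5 genes matched for some pairs and not for others. Relative to its strain's mean on the log2 CPM scale, MRL/lpr replicate 3 was at 0.19 for Usp18 and at -0.18 for Herc6, and MRL/lpr replicate 2 was at -0.49 for Ube2l6 and at 0.11 for Herc6. Isg15, like Usp18, was highest in replicate 3 (0.07), and Uba7 was lowest there (-0.06), as Herc6 was. In MRL/mpj the widest spread was that of Isg15, from -0.27 in replicate 3 to 0.27 in replicate 1, while Usp18 stayed within 0.04.

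Microglial identity was read from 12 marker genes, all detected, whose summed level was 23211 to 25231 CPM in MRL/lpr and 28640 to 29989 CPM in MRL/mpj, with 0 higher and 3 lower. This sum includes Cx3cr1, with its jump in MRL/lpr replicate 2. Sums of cell markers, here and below, were scaled by library total without TMM, unlike the CPM of the 5 genes. The calls of higher and lower came from the fit with TMM. Markers of other cells were far scarcer, and some moved with the strain as the 5 genes did. Of 6 T cell markers 5 were higher, with a summed level of 14.96 to 20.21 CPM against 4.33 to 4.98. Of 4 tested NK cell markers 2 were higher, Gzma and Prf1, and the list summed to 7.68 to 7.89 against 2.66 to 3.71 CPM. Klrb1c and Ncr1 of that list had few counts and log2 fold changes of -2.74 and 0.99. Neither passed the test (adjusted p = 0.232 and 0.708, edgeR). Cd3e gave 92 to 120 counts in MRL/lpr and 0 to 9 in MRL/mpj. Of 6 neutrophil markers 3 were higher, at 680 to 752 against 576 to 644 CPM. Of 4 markers of ependyma and choroid plexus 2 were lower, the choroid plexus genes Ttr and Folr1, and Ttr made up most of the sum of 297 to 318 CPM in MRL/lpr and 967 to 1048 in MRL/mpj. The ependymal Foxj1 and Ccdc153 had log2 fold changes of -0.43 and 0.33, neither past the test. Of 4 neuron markers 2 were lower, at 7.24 to 7.96 against 20.04 to 20.09 CPM. The part of these cells in the levels of the 5 genes was not tested.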

How the data were processed

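RNA-seq of brain cells selected by CD11b was compared between 3 MRL/lpr and 3 MRL/mpj libraries, with groups and replicate numbers from the labels. According to the submitters' processing notes the authors used cutadapt 1.9.3, HISAT2 2.0.4, Cufflinks, Cuffdiff 2.2.1 and GRCm38, and the study names DESeq2 for its own test. The deposited values are raw counts of each gene, as whole numbers, and FPKM, which the authors computed for each library. The counting tool, its strand setting and its annotation are not given in the sources used here. The labels describe removal of ribosomal RNA, whereas the methods describe purified mRNA. Low counts pile up at multiples of 4 (1234 genes with 4 counts in MRL/lpr replicate 1 and 377 with 3, while 254 had 5). The reason was not tested, and the counts may not be single read pairs.

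Symbols and coordinates came from GENCODE M21, which matched 55141 of 55401 identifiers. Counts were tested with edgeR 4.0.16 in R 4.3.3 (filterByExpr with a minimum count of 10, TMM, robust quasi-likelihood test, Benjamini-Hochberg over 19554 genes), with limma 3.58.1 and DESeq2 1.42.0 as alternatives. Only these fits, and not the ratios or other steps, were tried on simulated counts. The simulated counts had less spread between libraries than the real ones and no jumps in single libraries. "Higher" and "lower" mean an adjusted p under 0.05. Transcripts were compared with blastn 2.17.0+. Other choices were normalization, filter, dispersion, a fold-change test, counts divided by 4, a replicate block and each library left out.

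The 5 genes, the lists of partners, substrates, signalling genes, relatives and cell markers, and the tests were chosen with earlier results of these data known. Named genes were, from each list, up to 3 in each direction with the largest absolute log2 fold change past the threshold, the closest relatives, the 3 most similar genes and the nearest tested coding gene on each side. Ddx3y, Cx3cr1, Cd3e, Trim25 and other genes of the lists outside that rule, among them those named as not past the test, were named after their values were seen. Some genes counted in the lists are not reported here by name.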

Additional observations from a re-analysis of the deposited data

How the results depend on the processing

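The log2 fold changes of the 5 genes kept their direction and an adjusted p under 0.05 (or the lack of it) in each of 15 alternatives apart from the test against a log2 fold change of 1 with glmTreat. There the values of Isg15 (1.25), Uba7 (0.70), Ube2l6 (1.46) and Herc6 (1.20) did not pass, with adjusted p of 0.305, 1.0, 0.123 and 0.198, so that 1 gene of the 5, Usp18, was called. Under glmTreat the whole table held 616 calls in place of 1630, and the lists held 1 (substrates), 1 (interferon signalling) and 0 (partners, modifiers, E1, E2, HERC and USP relatives) at its threshold. With limma on log2(FPKM + 1) the calls fell to 614 and 3 of the 5 genes were called, since Herc6 had 0.86, while 2 E1 relatives and 0 HERC relatives passed, and Ifih1, Tyk2, Irf9, Ube2d3 and Ube2e3 lost their calls. DESeq2 called 1901 genes, 4 of the 5, and 2 E1 relatives. Scaling by library size only moved the median of all genes to -0.13 and the 5 genes to between 0.57 and 2.59, turned the split from 914 higher and 716 lower to 766 and 932, and gave 4 modifiers, 3 E1 and 0 HERC relatives. It also ended the calls of Tyk2, Ube2e3 and Herc1.

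Leaving out 1 library gave 4 called genes of the 5 each time, and log2 fold changes of 1.12 to 1.40 for Isg15, 0.67 to 0.73 for Uba7, 1.34 to 1.67 for Ube2l6, 1.14 to 1.28 for Herc6 and 2.62 to 2.78 for Usp18. The E1 relatives passing the test ranged from 1 to 2 (Uba3 was added without MRL/lpr replicate 1), the E2 relatives from 1 to 3 (fewest without MRL/lpr replicate 2 or MRL/mpj replicate 2), and the HERC relatives from 0 to 2 (0 without MRL/lpr replicate 1 or 2 or MRL/mpj replicate 1 or 2, and 2 without MRL/lpr replicate 3). The log2 difference in the ratio of Usp18 to Isg15 was 1.46, 1.31 to 1.59 without 1 library, and 0.90 with 1 added to both FPKM values. Over the longest coding transcript in place of FPKM, the log2 level of Uba7 over Isg15 in MRL/lpr turned from -0.46 to 0.71. Same-numbered libraries of the strains had correlations of -0.0409, -0.0202 and -0.0325 in their deviations, so the numbers do not pair them. With a replicate block 1422 genes, 4 of the 5 genes and 0 HERC relatives were called, with log2 fold changes of 1.27 (Isg15), 0.70 (Uba7), 1.43 (Ube2l6), 1.19 (Herc6) and 2.71 (Usp18). With 3 libraries a strain, the exact permutation test of the ratios could not pass 0.05. The causes of these changes were not tested.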

Other observations

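The remaining cell marker lists showed no common direction. Border macrophage markers summed to 46.5 to 50.8 CPM in MRL/lpr and 57.3 to 66.0 CPM in MRL/mpj, with 2 of 6 lower, and monocyte markers to 70.5 to 73.3 against 84.3 to 91.0 CPM, with 2 of 5 higher and 1 lower. B cell markers (8.98 to 9.63 against 8.77 to 10.5 CPM) and astrocyte markers (55.7 to 59.2 against 53.7 to 64.1 CPM) overlapped between the strains, with none past the test. Oligodendrocyte markers summed to 74.8 to 83.3 against 94.0 to 117 CPM with 1 of 4 lower. Endothelial markers summed to 1204 to 1278 against 1157 to 1203 CPM with 1 of 4 higher, and erythrocyte markers to 669 to 1042 against 638 to 701 CPM with 1 of 5 higher.

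Y-linked genes other than Ddx3y were also counted in all 6 libraries. Kdm5d gave 924 to 1153 counts in MRL/lpr and 1768 to 1833 in MRL/mpj, a log2 fold change of -0.59 (SE 0.09, adjusted p = 0.00136, edgeR). Eif2s3y had -0.34 (adjusted p = 0.0555, edgeR) and Uty had 0.07 (adjusted p = 0.777, edgeR). The part of the make-up by sex in the levels of the ISG15 genes was not tested.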
